A study of Mus musculus with 7 samples.

Results

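Chromatin accessibility was examined at 10 genes for the breakdown of extracellular matrix: the matrix metalloproteinases Mmp2, Mmp3, Mmp9, Mmp13, Mmp14 and Mmp15, their inhibitors Timp1 and Timp3, the urokinase plasminogen activator Plau and its receptor Plaur. An accessible region belonged to a gene when, among the transcription start sites (TSSs) of all protein-coding genes, the site nearest to the region's midpoint was one of that gene. By this rule 79 of 119215 regions belonged to 9 of the 10 genes, and Mmp3 had none. The regions came from ATAC-seq, in which a transposase inserts sequencing adapters into open DNA, of mammary tumor cells from mice with both the MMTV-PyMT oncogene and the Dll1-mCherry reporter. In these mice the mouse mammary tumor virus promoter drives the polyoma middle T antigen, so that tumors arise in the mammary epithelium, and mCherry reports activity of the Notch ligand gene Dll1. All samples carried both transgenes, and none was treated. Cells with CD45, CD31 or Ter119 on their surface had been sorted out, which removes leukocytes, endothelial cells and erythroid cells but leaves any fibroblasts, and the rest was divided into mCherry+ (Dll1+) and mCherry- (Dll1-) cells. There were 3 Dll1+ and 4 Dll1- samples from 4 tumors, and 3 of the tumors gave both populations.

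Matrix metalloproteinases are zinc-dependent enzymes that cleave collagens and other matrix proteins, some after secretion and some while anchored in the cell membrane. TIMPs are secreted proteins that bind and block them. Urokinase cuts plasminogen to plasmin, a protease that degrades fibrin and can activate metalloproteinase precursors, and the urokinase receptor holds this reaction at the cell surface. In mammary tumors these enzymes are made by tumor cells and, often more abundantly, by fibroblasts and macrophages, and they are known for their part in invasion and in the release of growth factors from the matrix.

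For each population the authors deposited 1 peak list that pooled its samples, so no difference below could be set against the spread between tumors, and none carries a p-value. The Dll1+ list held 132872 rows and the Dll1- list 148923. Strength was read in 2 ways. The first was the percentile of a region's fold enrichment over its local background among all rows of its own list. The second was the number of reads at its strongest summit, recovered from the deposited values. Reads in Dll1+ cells were divided by those in Dll1- cells and then by 0.614, the median of this ratio over all shared regions, to give a relative read ratio that is 1 for a typical region. The Dll1- list was deeper, with a background of 7.20 reads across the genome against 3.74 for Dll1+. A region missing from a list was therefore not called at that depth, which does not show that it was closed. In bulk samples, fewer cells with a region open and less opening per cell cannot be told apart.

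The DNA of the regions on which the comparison turns is shown first, as the plus strand of the GRCm38.p6 genome around the strongest summit. At Plau these are the region only in the Dll1- list nearest upstream of the gene (chr14:20834247-20834447), with a match to the NF-kB consensus in capitals, and the shared region downstream with the lowest relative read ratio of all members (chr14:20850583-20850783), with the bases at the summit in capitals. At Plaur these are the upstream region with the most reads (chr7:24461480-24461680, RBPJ consensus in capitals) and an intronic region (chr7:24470464-24470664, AP-1 consensus in capitals). At Timp3 these are the region with the highest relative read ratio of all members (chr10:86223397-86223597, summit in capitals) and the strongest member region found in 1 list only (chr10:86171349-86171549, in which TEAD, RUNX and AP-1 matches are in capitals, in that order). A match is a match of letters and does not show that a factor was bound.
Plau, 2.3 kb upstream: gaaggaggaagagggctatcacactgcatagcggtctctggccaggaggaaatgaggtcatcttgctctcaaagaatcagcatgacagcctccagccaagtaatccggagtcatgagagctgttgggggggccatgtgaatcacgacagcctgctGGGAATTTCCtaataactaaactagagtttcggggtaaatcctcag
Plau, 14.0 kb downstream: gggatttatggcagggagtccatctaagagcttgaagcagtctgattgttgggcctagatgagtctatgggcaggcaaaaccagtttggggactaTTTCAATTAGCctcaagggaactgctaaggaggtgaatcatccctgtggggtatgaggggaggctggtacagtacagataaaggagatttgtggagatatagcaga
Plaur, 0.8 kb upstream: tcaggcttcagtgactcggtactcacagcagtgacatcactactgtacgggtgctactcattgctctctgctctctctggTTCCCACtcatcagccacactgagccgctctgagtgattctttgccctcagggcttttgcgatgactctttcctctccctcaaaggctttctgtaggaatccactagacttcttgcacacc
Plaur, 8.1 kb downstream: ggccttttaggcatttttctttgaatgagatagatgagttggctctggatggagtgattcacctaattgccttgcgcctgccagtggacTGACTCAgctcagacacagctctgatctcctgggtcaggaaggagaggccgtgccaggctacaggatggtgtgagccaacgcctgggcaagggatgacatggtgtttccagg
Timp3, 76.8 kb upstream: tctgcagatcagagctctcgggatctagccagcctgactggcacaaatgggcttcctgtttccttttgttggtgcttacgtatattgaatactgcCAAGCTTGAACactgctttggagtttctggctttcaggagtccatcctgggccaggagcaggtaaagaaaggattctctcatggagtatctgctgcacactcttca
Timp3, 128.9 kb upstream: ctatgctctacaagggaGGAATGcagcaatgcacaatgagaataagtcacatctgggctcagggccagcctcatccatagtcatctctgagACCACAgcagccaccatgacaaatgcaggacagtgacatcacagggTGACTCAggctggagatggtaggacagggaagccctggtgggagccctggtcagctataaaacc

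Across all members, presence in the lists was close to that of all regions. Of the 79 regions, 51 were shared, 7 were only in the Dll1+ list and 21 only in the Dll1- list. Regions only in the Dll1+ list made up 8.86% of member regions (Wilson 95% interval 4.36 to 17.2%) against 9.01% of all regions, and those only in the Dll1- list made up 26.6% (18.1 to 37.2%) against 24.6%. Both intervals included the value over all regions. When a region in 1 list only had to hold a row at or above the median fold enrichment of that list, 0 of 57 member regions were only in the Dll1+ list (background 1.9%) and 6 (10.5%, background 7.49%) only in the Dll1- list. With weaker rows left out of both lists the counts were 4 (background 9.44%) and 10 (background 21%) of 40, and within 50 kb of the TSS 4 (6.35%, background 7.87%) and 17 (27.0%, background 23.6%) of 63. Such intervals cover counting error only, since neighboring regions are not replicates and, with no molecular identifiers, several reads can stem from 1 molecule. The regions lay in introns (45), between genes (22), in promoters (6), coding exons (3), 3′ UTRs (2) and a 5′ UTR (1), and Timp3 alone accounted for 37 of them.

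**Figure D1:**
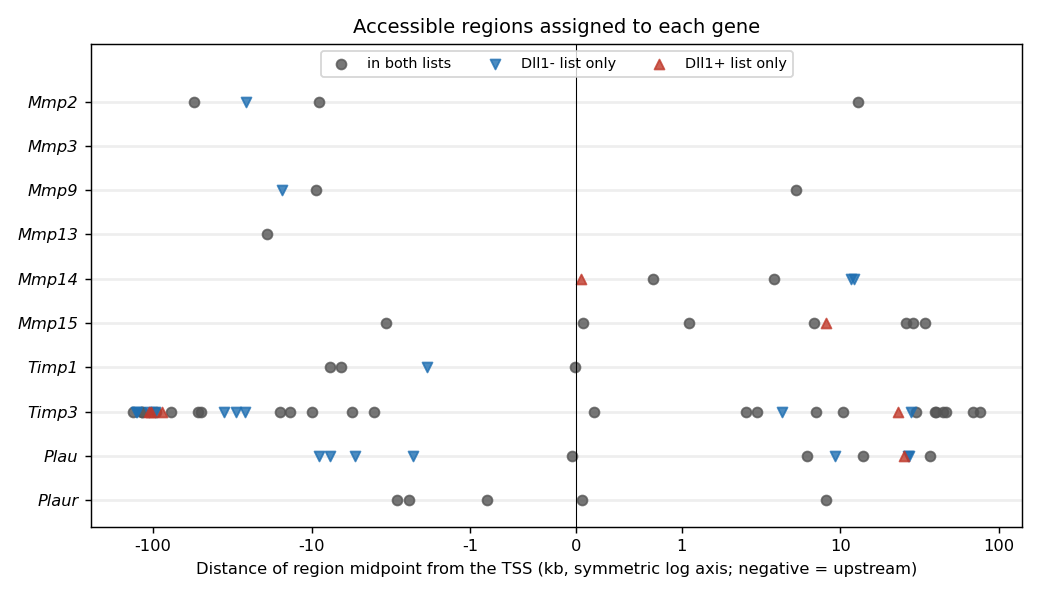
Distance in kb from the TSS to the midpoint of each of the 79 member regions (x axis, symmetric log scale, upstream negative), by gene. Grey circles were in both lists, blue triangles only in the Dll1- list and red triangles only in the Dll1+ list; the 7 blue triangles of Plau lie on both sides of the gene, and Mmp3 has no region.

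Strength in the shared regions of the members was split much as in all shared regions. The percentile was higher in the Dll1+ list for 20 of the 51 regions (39.2%, against 41.0% of all shared regions) and in the Dll1- list for 31, with a median difference (Dll1+ minus Dll1-) of -4.65 points against -1.67 over all shared regions. Differences past 20 points were found for 2 regions higher in Dll1+ (3.92%, background 6.39%) and 5 higher in Dll1- (9.80%, background 11.1%), and with equal numbers of rows in both lists the counts were 5 (10.2%, background 10%) and 4 (8.16%, background 7.92%). The median relative read ratio was 0.951. It passed 1.5 fold in favor of Dll1+ in 5 regions (9.80%, background 12.5%), all of Timp3, and in favor of Dll1- in 9 regions (17.6%, background 12.3%), of which 4 belonged to Plaur, 2 to Plau, 2 to Mmp15 and 1 to Mmp14. This balance depended on the scaling: with reads scaled by the genome-wide background, 10 regions passed in favor of Dll1+ (19.6%, background 23.6%), 8 of them of Timp3, and 6 in favor of Dll1- (11.8%, background 6.21%). The scaling moved every region alike, so all shared regions shifted toward Dll1+ with the members. The 3 regions that no longer passed toward Dll1- were those at 3.8 kb of Mmp14, 34.0 kb of Mmp15 and 2.9 kb upstream of Plaur, and the 5 that came to pass toward Dll1+ were those 9.4 kb upstream of Mmp9, 28.9 kb downstream of the Mmp15 TSS, and 49.6 kb upstream and 40.3 and 44.5 kb downstream of the Timp3 TSS. Of the 13 shared member regions whose interval lay below 1, 6 kept it there on that scale, while the number whose interval lay above 1 rose from 5 to 12. Such intervals were not counted over all shared regions, so these numbers have no background to be set against. The genes are described one by one below.

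**Figure D2:**
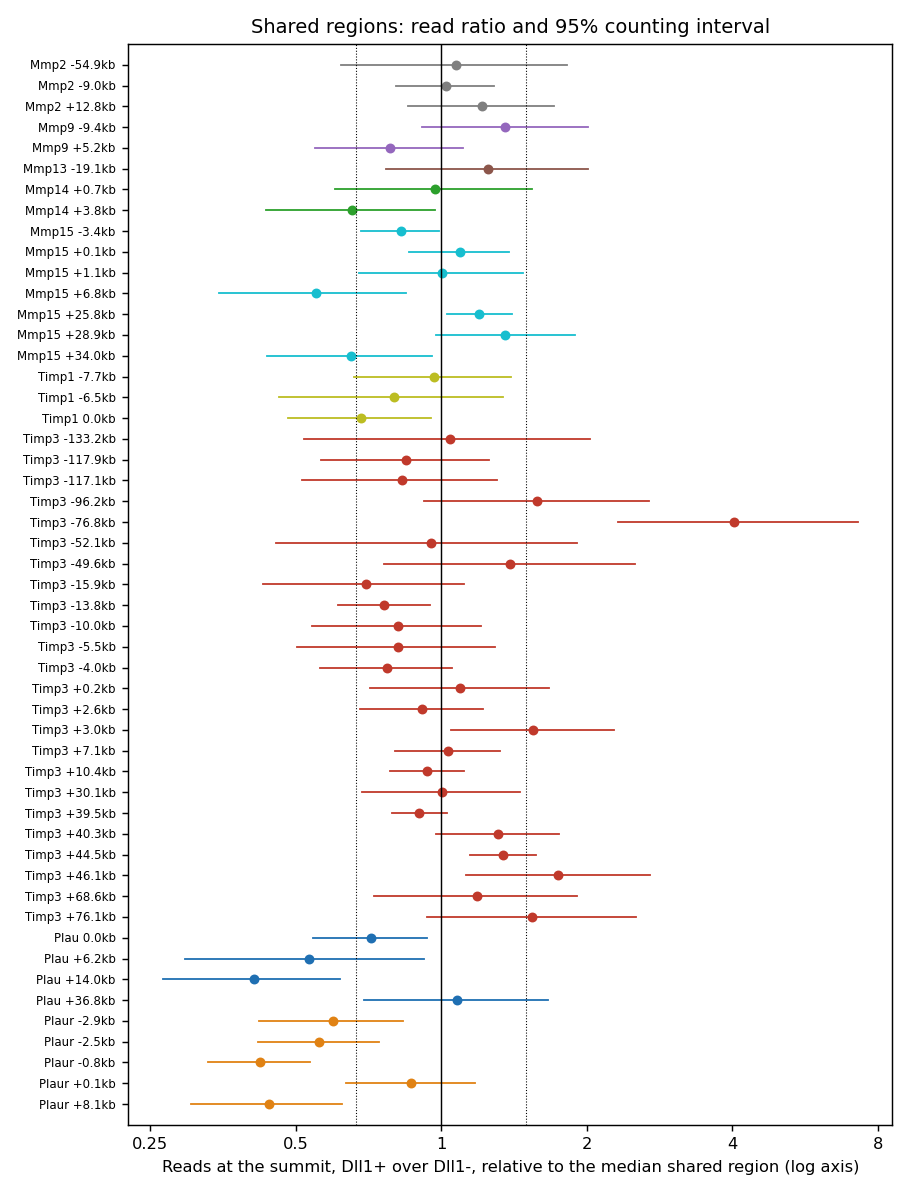
Relative read ratio (Dll1+ over Dll1-, log axis) of the 51 shared member regions with its exact 95% interval for counting error, colored by gene and named by distance from the TSS. The solid line marks the median shared region and the dotted lines 1.5 fold; the 5 Plaur regions all lie left of the solid line, and the Timp3 region 76.8 kb upstream lies farthest to the right at 4.03.

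Of the secreted metalloproteinases, none had an accessible region over its TSS (from 1000 bp before it to 100 bp after it) in either list. Over all protein-coding genes, 60.2% had a TSS region among the Dll1+ rows and 62.7% among the Dll1- rows. Mmp3, stromelysin 1 (ENSMUSG00000043613, chromosome 9, 7445822 to 7455975, plus strand), was the one member with no region at all, and the summit nearest to its TSS lay 116.9 kb away for Dll1+ and 81.0 kb away for Dll1-. Mmp13, collagenase 3 (ENSMUSG00000050578, chromosome 9, 7272514 to 7283331, plus strand), had a single shared region, 19.1 kb upstream. That region held 33 reads in Dll1+ and 43 in Dll1- cells and stood at percentiles 63.7 and 54.3, and its relative read ratio of 1.25 had an exact 95% interval of 0.77 to 2.02, given in parentheses after later ratios.

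The 250 bases upstream of the TSS are shown for these genes and for Plaur, the other member with an AP-1 match there. The sequences are on the plus strand, come from the RefSeq promoter table for GRCm38.p6 and end at the base before the RefSeq start site, which for Plaur lies 1 base before the GENCODE start used elsewhere, with AP-1 (TGACTCA on either strand) and TATA box (TATAAA) matches in capitals. Of the 10 members, 7 had an entry, and AP-1 was found in 3 of them and the TATA box in 2. Over all 32851 promoters of the table, 4.46% held AP-1 and 12.4% the TATA box in the same window. Mmp3 and Mmp13 thus had the same pair of motifs and no accessible region there, while the Plaur promoter, with AP-1 but without TATAAA, overlapped a region of both lists.
Mmp3 (chr9:7445572-7445821): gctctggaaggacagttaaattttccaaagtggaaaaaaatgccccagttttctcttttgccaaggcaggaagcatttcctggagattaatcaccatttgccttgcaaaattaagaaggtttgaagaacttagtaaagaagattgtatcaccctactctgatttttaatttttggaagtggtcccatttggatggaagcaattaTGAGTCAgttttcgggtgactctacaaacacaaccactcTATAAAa
Mmp13 (chr9:7272264-7272513): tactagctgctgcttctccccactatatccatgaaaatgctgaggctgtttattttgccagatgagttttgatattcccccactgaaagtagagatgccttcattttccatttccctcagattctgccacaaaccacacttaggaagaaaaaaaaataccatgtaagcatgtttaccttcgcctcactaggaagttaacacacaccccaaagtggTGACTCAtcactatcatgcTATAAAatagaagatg
Plaur (chr7:24462233-24462482): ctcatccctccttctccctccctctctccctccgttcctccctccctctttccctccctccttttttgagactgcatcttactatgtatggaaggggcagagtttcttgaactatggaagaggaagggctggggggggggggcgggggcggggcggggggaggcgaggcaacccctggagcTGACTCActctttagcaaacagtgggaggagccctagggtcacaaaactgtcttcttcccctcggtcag

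The gelatinases Mmp2 and Mmp9, which cleave denatured collagen and the type IV collagen of basement membranes, had distal regions only. Mmp2 (ENSMUSG00000031740, chromosome 8, 92827291 to 92853420, plus strand) had 4 regions, of which 3 were shared. The strongest, 9.0 kb upstream, held 121 reads in Dll1+ and 193 in Dll1- cells and stood at percentiles 98.7 and 97.9, the highest of any member in both lists. Its relative read ratio was 1.02 (0.81 to 1.29). The intronic region 12.8 kb downstream of the TSS had 61 and 82 reads, a relative ratio of 1.21 (0.86 to 1.71), or 1.43 (1.01 to 2.02) on the genome-wide scale, and the largest rank difference of the gene (9.26 points). The remaining region, 26.0 kb upstream with 24 reads, was only in the Dll1- list.

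Mmp9 (ENSMUSG00000017737, chromosome 2, 164940780 to 164955850, plus strand) had 3 regions, measured from its protein-coding TSS at 164948219. The intronic region 5.2 kb downstream held 50 reads in Dll1+ and 104 in Dll1- cells, at percentiles 81.7 and 89.6. The upstream region at 9.4 kb held 50 and 60 reads, at percentiles 81.7 and 70.3. These regions moved in opposite directions, with relative read ratios of 0.78 (0.55 to 1.11) and 1.36 (0.91 to 2.01), and both intervals included 1. On the genome-wide scale the ratios were 0.93 (0.65 to 1.31) and 1.60 (1.08 to 2.38), so that the upstream region passed 1.5 fold toward Dll1+ and its interval lay above 1. A region 15.4 kb upstream, with 46 reads, percentile 57.7 and an AP-1 match, was only in the Dll1- list.

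Mmp14 and Mmp15 encode membrane-anchored metalloproteinases, of which Mmp14 is known as the activator of the Mmp2 precursor. Mmp14 (ENSMUSG00000000957, chromosome 14, 54431612 to 54445364, plus strand) was the one member whose TSS region was called in 1 list only. That region (chr14:54431414-54431954) was in the Dll1+ list, with 31 reads over a local background of 10.05, a fold enrichment of 2.90 and a percentile of 11.6. It was among the weakest of the list, and scaled to the depth of the Dll1- list its reads would come to 50.5. The neighboring region 0.7 kb downstream was shared, with 31 and 52 reads and a relative ratio of 0.97 (0.60 to 1.54).

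The other regions of Mmp14 lay on the Dll1- side. The intronic region 3.8 kb downstream, which holds AP-1 and TEAD matches, had 37 reads in Dll1+ and 92 in Dll1- cells, with a relative ratio of 0.66 (0.43 to 0.97), or 0.77 (0.51 to 1.15) on the genome-wide scale, and percentiles of 39.2 and 52.2. Regions 11.7 and 12.3 kb downstream, with 33 and 48 reads, were only in the Dll1- list, and the stronger of them stood at percentile 54.6. No region of Mmp14 stood higher than this in either list.

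Mmp15 (ENSMUSG00000031790, chromosome 8, 95352268 to 95375080, plus strand) had 8 regions, of which 7 were shared and 1, with 18 reads, was only in the Dll1+ list. Its TSS region held 120 reads in Dll1+ and 179 in Dll1- cells, at percentiles 42.9 and 47.7, with a relative ratio of 1.09 (0.86 to 1.38), or 1.29 (1.02 to 1.64) on the genome-wide scale. The strongest region lay 25.8 kb downstream of the TSS, beyond the end of the gene, with 293 and 398 reads, percentiles 89.3 and 94.4 and a relative ratio of 1.20 (1.03 to 1.40). The region 28.9 kb downstream, with 70 and 84 reads and percentiles of 26.9 and 31.5, had a relative ratio of 1.36 (0.97 to 1.89), or 1.60 (1.15 to 2.23) on the genome-wide scale, which passed 1.5 fold. All 7 shared regions stood at a higher percentile in the Dll1- list, although the relative read ratio was below 1 in 3 of them. With equal numbers of rows in both lists, the TSS region stood 1.51 points higher in Dll1+ instead.

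The largest rank difference toward Dll1- among all members was in an intron of Mmp15, 6.8 kb downstream of the TSS (chr8:95358681-95359471). There 29 reads in Dll1+ stood against 86 in Dll1- cells, at percentiles 24.5 and 70.7, a difference of -46.2 points. The relative ratio was 0.55 (0.35 to 0.85). The region 34.0 kb downstream, with AP-1 and TEAD matches, had 38 and 95 reads and a relative ratio of 0.65 (0.44 to 0.96), past 1.5 fold, but 0.77 (0.51 to 1.13) on the genome-wide scale, which did not pass.

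Timp1 and Timp3 encode inhibitors, of which Timp3 stays bound to the matrix and also blocks several ADAM proteases. Timp1 (ENSMUSG00000001131, chromosome X, 20870166 to 20874735, plus strand), which lies within an intron of the synapsin gene Syn1 on the opposite strand, had 4 regions, 3 of them shared. The TSS region was its strongest, with 51 reads in Dll1+ and 122 in Dll1- cells at percentiles 80.3 and 84.9. The relative read ratio was 0.68 (0.48 to 0.95), while the percentiles differed by -4.65 points. With reads scaled by the genome-wide background the ratio was 0.81 (0.57 to 1.13), an interval that includes 1. The largest rank difference, -12.0 points, was in a coding exon of Syn1 6.5 kb upstream, with 23 and 47 reads. A region 1.9 kb upstream, with 39 reads and an AP-1 match, was only in the Dll1- list.

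**Figure D3:**
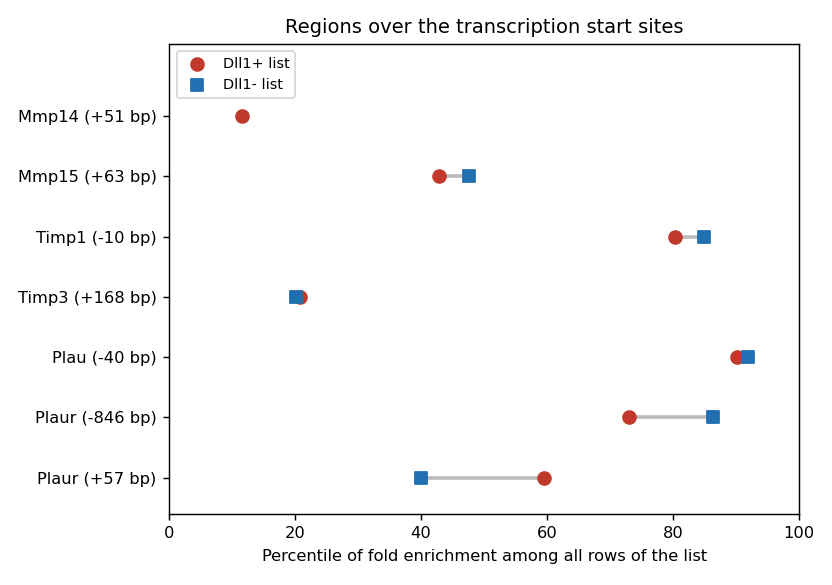
Percentile of fold enrichment (x axis) of the regions over the TSSs in the Dll1+ list (red circles) and the Dll1- list (blue squares), with the distance of the region's midpoint from the TSS in bp. Plaur has 2 promoter regions, one upstream and one spanning the TSS, whose ranks differ in opposite directions, Mmp14 has a value in the Dll1+ list only, and Mmp2, Mmp3, Mmp9 and Mmp13 have no TSS region.

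Timp3 (ENSMUSG00000020044, chromosome 10, 86300372 to 86349506, plus strand) is nested in Syn3, which is transcribed from the opposite strand, and most of its 37 regions lay in introns of Syn3. This number of regions was at percentile 98.9 of all protein-coding genes. Of the 37 regions, 24 were shared, 4 were only in the Dll1+ list and 9 only in the Dll1- list. The last 2 counts fell to 0 and 3 when such a region had to hold a row at or above the median fold enrichment of its list, and to 1 and 5 within 50 kb of the TSS. The shared regions were split evenly, with 12 ranked higher in each list and a median relative ratio of 1.02. Without Timp3, the members had 27 shared regions, 3 only in the Dll1+ list and 12 only in the Dll1- list. Over all regions, 9.01% were only in the Dll1+ and 24.6% only in the Dll1- list, and the Timp3 regions came close to this split. With and without Timp3, the members lay below the first share and above the second.

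The region over the Timp3 TSS was weak and alike in rank, with 39 and 58 reads at percentiles 20.8 and 20.2 and a relative ratio of 1.10 (0.71 to 1.67). With equal numbers of rows in both lists, its rank was 10.2 points higher in Dll1+. Much stronger regions lay inside the gene. The one 39.5 kb downstream held 353 reads in Dll1+ and 638 in Dll1- cells, the most of any member, and the one 10.4 kb downstream held 204 and 355, at percentiles 94.1 and 96.3, the highest of the gene. Their relative ratios of 0.90 (0.79 to 1.03) and 0.94 (0.78 to 1.12) included 1.

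The largest difference of any shared member region was 76.8 kb upstream of Timp3, in an intron of Syn3 (chr10:86223272-86223788), the region whose summit sequence is shown above. It held 47 reads in Dll1+ and 19 in Dll1- cells, so the shallower list had more reads. The fold enrichment was 10.1 against 2.44 and the percentile 79.3 against 8.67, a difference of 70.7 points, and the relative ratio was 4.03 (2.32 to 7.27). None of the 7 motifs searched lay within 100 bp of its summit. When the Dll1- list was reduced to as many rows as the Dll1+ list, this region was no longer in it.

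A further region 96.2 kb upstream of Timp3 was the other member region past 20 points higher in Dll1+, with 30 and 31 reads at percentiles 59.0 and 34.7. Its relative ratio of 1.58 had an interval of 0.92 to 2.69. The remaining Timp3 regions past 1.5 fold were at 3.0, 46.1 and 76.1 kb downstream of the TSS, with relative ratios of 1.55 (1.05 to 2.27), 1.74 (1.13 to 2.71) and 1.54 (0.93 to 2.53). When reads were scaled by the genome-wide background instead of the median region, 8 regions of Timp3 and not 5 passed 1.5 fold.

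In the other direction, the region 15.9 kb upstream of Timp3 held 27 reads in Dll1+ and 63 in Dll1- cells at percentiles 13.6 and 37.8, a difference of -24.2 points, or -16.7 with equal numbers of rows, which does not pass 20 points. Its relative ratio was 0.70 (0.43 to 1.11). The strongest Timp3 region found in 1 list only lay 128.9 kb upstream (chr10:86171218-86171655), in the Dll1- list, with 72 reads, a fold enrichment of 8.81 and a percentile of 77.4. Scaled to the depth of the Dll1+ list, its reads would come to 44.2, while 13 reads was the 5th percentile among Dll1+ rows over the lowest background. The strongest in the Dll1+ list only, 23.1 kb downstream of the TSS, had 27 reads and percentile 45.1.

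Plau (ENSMUSG00000021822, chromosome 14, 20836660 to 20843385, plus strand) had 12 regions, of which 4 were shared, 7 were only in the Dll1- list and 1 only in the Dll1+ list. Without Plau, the members had 47 shared regions, 6 only in the Dll1+ list and 14 only in the Dll1- list. Their share only in the Dll1- list, 26.6% with Plau, then lay below the 24.6% of all regions. The TSS region (chr14:20836131-20837109) was strong in both lists, at percentiles 90.2 and 92.0 and with fold enrichments of 13.9 and 14.0. It held 80 reads in Dll1+ and 182 in Dll1- cells, and its relative ratio was 0.72 (0.54 to 0.94), or 0.85 (0.64 to 1.11) on the genome-wide scale. The local background was lower in Dll1+ by a similar factor (4.85 and 12.0 reads), which is why the fold enrichment hardly differed while the reads did.

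The distal regions of Plau differed more than its promoter. The region 14.0 kb downstream of the TSS (chr14:20850349-20850884) held 30 reads in Dll1+ and 119 in Dll1- cells, the lowest relative ratio of any member at 0.41 (0.27 to 0.62). It stood at percentile 59.0 for Dll1+ and 93.0 for Dll1-, in the latter above the promoter. This difference of -33.9 points became -67.9 when ranked anew among rows at or above the median fold enrichment of their list. That ranking spreads the kept rows over the whole percentile scale and so widens differences, and the value does not show a larger difference. In the 3′ UTR, 6.2 kb downstream, 18 and 55 reads gave percentiles of 29.4 and 66.4 and a relative ratio of 0.53 (0.29 to 0.92), or 0.63 (0.35 to 1.09) on the genome-wide scale. The region 36.8 kb downstream was the exception, with 37 and 56 reads, percentiles of 69.2 and 67.3 and a relative ratio of 1.08 (0.69 to 1.66).

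The 7 Plau regions only in the Dll1- list lay on both sides of the gene. Upstream, those at 9.0, 7.6, 5.3 and 2.3 kb held 37, 37, 47 and 66 reads and stood at percentiles 45.3 to 46.5. Downstream, those at 9.3, 26.8 and 27.2 kb held 42, 33 and 65 reads. The last was the strongest, with a fold enrichment of 8.05 and a percentile of 73.7, and was the 1 of the 7 to pass the median fold enrichment of the list. Scaled to the depth of the Dll1+ list, the reads of the 7 regions would come to 20.2 to 40.5. The single region only in the Dll1+ list, 25.1 kb downstream, held 14 reads at percentile 15.9.

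**Figure D4:**
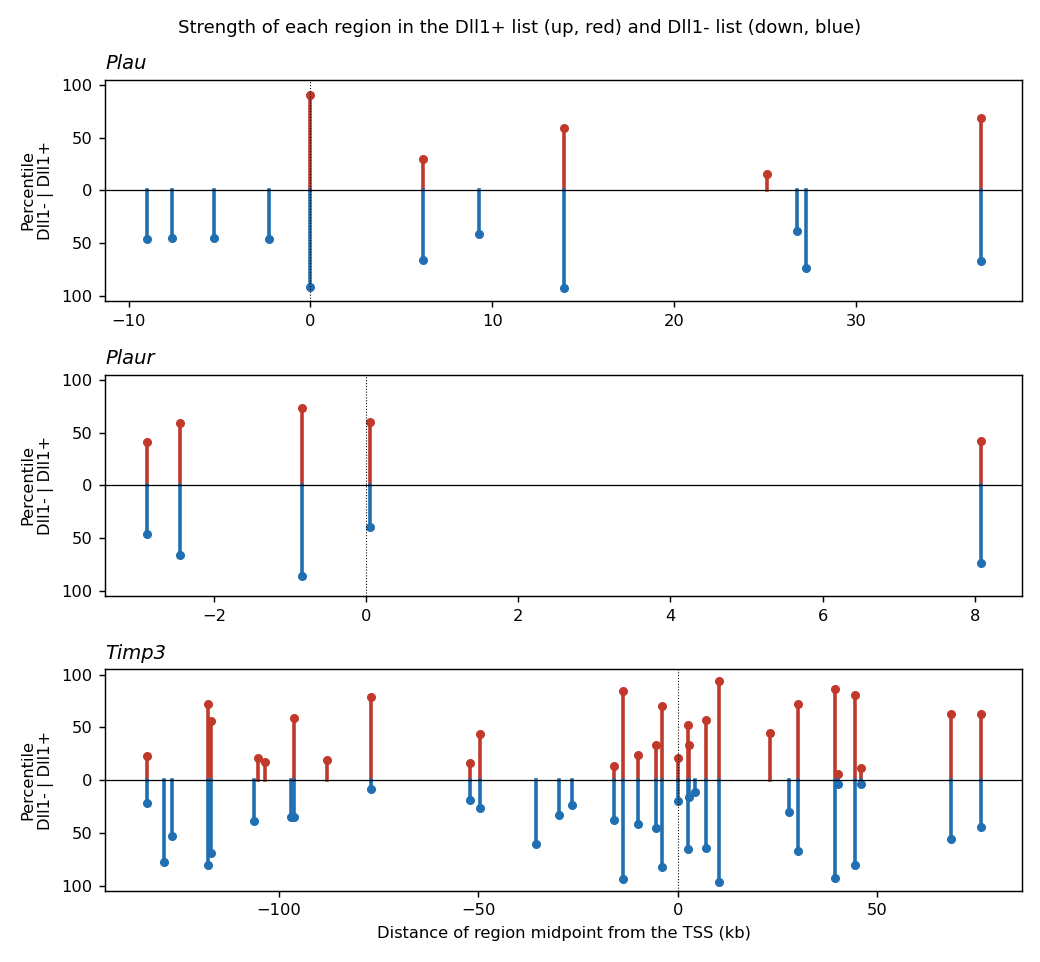
Percentile of fold enrichment of each region of Plau, Plaur and Timp3 in the Dll1+ list (red, upward) and the Dll1- list (blue, downward) by distance in kb of its midpoint from the TSS (dotted line). A bar on 1 side of the axis only is a region called in 1 list; 7 such bars point down at Plau, none is seen at Plaur, and the tall upward bar with a short downward one at Timp3 is the region 76.8 kb upstream.

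Plaur (ENSMUSG00000046223, chromosome 7, 24462484 to 24475968, plus strand) had 5 regions, all shared, and all 5 had a relative read ratio below 1, of which 4 passed 1.5 fold toward Dll1-. The region 0.8 kb upstream (chr7:24461368-24461907) was the strongest in both lists, with 88 reads in Dll1+ and 340 in Dll1- cells, percentiles of 73.0 and 86.3 and a relative ratio of 0.42 (0.33 to 0.53). The intronic region 8.1 kb downstream of the TSS held 41 and 152 reads, at percentiles 42.0 and 74.2, with a relative ratio of 0.44 (0.30 to 0.62). The regions 2.9 and 2.5 kb upstream held 49 against 134 and 67 against 195 reads, with relative ratios of 0.60 (0.42 to 0.83) and 0.56 (0.42 to 0.74). Their fold enrichments hardly differed, at 4.84 for Dll1+ against 4.65 for Dll1- and at 6.57 against 6.73, and their percentiles were 40.8 against 46.2 and 59.5 against 65.8.

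The region over the Plaur TSS itself (chr7:24462293-24462789), which contains the AP-1 match of the promoter shown above, was the exception. It held 67 reads in Dll1+ and 126 in Dll1- cells, a relative ratio of 0.87 (0.63 to 1.17). Its fold enrichment was nevertheless higher in Dll1+, at 6.59 against 4.24, and its percentile was 59.6 against 39.9, a difference of 19.7 points. The difference was 26.9 points when both lists had equal numbers of rows, 17.6 by percentile among regions and 1.94 by percentile of the −log10 p-value. The measures parted because the local background across the 4 regions around the promoter was 9.23 to 9.35 reads for Dll1+ and 28.0 to 28.9 for Dll1-, a ratio of 0.32 to 0.33, where the ratio of the genome-wide backgrounds was 0.519. With reads scaled by the genome-wide background, 3 regions of Plaur passed 1.5 fold and the TSS region had a log2 ratio of 0.03 in place of -0.21.

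Sequence motifs were counted around the strongest summit of each region. AP-1 (TGACTCA, both strands) lay within 100 bp of the summit in 15 of 79 member regions (19.0%) and in 18.1% of all regions. It was in 10 of 51 shared regions (background 15.4%), in 0 of 7 regions only in the Dll1+ list (background 4.40%) and in 5 of 21 only in the Dll1- list (background 30.4%). By gene, 3 of the 5 Plaur regions and none of the 12 Plau regions held it. The NF-kB consensus was in 5 member regions, 2 of them at Plau (2.3 and 26.8 kb from the TSS, both only in the Dll1- list), against 3.02% of all regions. Within 50 bp of the summit it was in 2 member regions (26.8 kb from Plau and 7.7 kb upstream of Timp1) against 1.58% of all regions, so the match 2.3 kb upstream of Plau shown above lay farther from the summit than that. TEAD (GGAATG) was in 17 member regions, 11 of them at Timp3, against 14.8% of all regions, RUNX (TGTGGT) in 10 (15.3%), the GC box (GGGCGG) in 10 (13.3%), RBPJ (GTGGGAA) in 5 (4.30%) and ETS (CCGGAA) in 1 (5.85%).

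Other genes of matrix proteolysis, 51 in 6 lists, gave a wider view. They had 359 regions, of which 234 were shared, 22 only in the Dll1+ list and 103 only in the Dll1- list. Of the regions in 1 list only, 17.6% (11.9 to 25.2%) were thus in the Dll1+ list, against 26.8% over all genes and 25.0% among the members. The plasminogen system, with 96 regions, had 4 only in the Dll1+ and 26 only in the Dll1- list and a median relative ratio of 0.857 in shared regions. The other metalloproteinases had 2 and 23 of 57 regions, the other inhibitors 2 and 4 of 15, the ADAM and ADAMTS proteases 13 and 32 of 115, the cathepsins 1 and 8 of 27, and the membrane serine proteases with their inhibitors 0 and 10 of 49.

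Plat, the tissue-type plasminogen activator, had 8 shared regions and 3 only in the Dll1- list. Timp2, which takes part in the activation of Mmp2 by Mmp14, had 4 shared and 3 only in the Dll1- list. By plain count, the largest excess of regions only in the Dll1- list was at Adamts9, a proteoglycan-cleaving protease (9 against 3), followed by Mrc2, a collagen uptake receptor (6 against 1), the disintegrin protease Adam12 (6 against 1), plasminogen itself (Plg, 5 against 0) and Tmprss2 (5 against 0), which were tied. Over all regions the counts were 29318 against 10744, and the split at Adamts9 was close to that. An excess in the Dll1+ list was found at 2 genes, the membrane-anchored inhibitor Reck (2 against 0) and Adam9 (1 against 0).

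Markers of other cells were read in the same way, since fibroblasts and leukocytes also use these genes. Of 20 fibroblast markers, 4 had a TSS region for Dll1+ and 10 for Dll1-, and their 190 regions included 9 found only for Dll1+ (4.74%, against 9.01% of all regions) and 85 found only for Dll1- (44.7%, against 24.6%). Their fold enrichments summed to 848 for Dll1+ and 1124 for Dll1-, sums that include the regions in 1 list only. In their 96 shared regions the median relative ratio was 1.05 and the median rank difference 0.095 points. Col1a2, Col6a1, Pdgfrb, Fap, Postn and Fbn1 had a TSS region in the Dll1- list only, at percentiles from 14.8 (Fap) to 51.6 (Col1a2), and Col5a1, Col5a2, Col6a2 and Pdgfra had one in both lists. The other 10, among them Col1a1, Col3a1, Dcn, Lum, Thy1 and Prrx1, had none in either list. Col5a1 and Twist2 had the most regions in 1 list only of these markers, with 1 in the Dll1+ and 14 in the Dll1- list each. The part of fibroblasts in the lower values of Plau and Plaur in Dll1+ cells was not tested.

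Immune markers had 4 regions only in the Dll1+ (6.67%) and 21 only in the Dll1- list (35.0%) of 60, with a summed fold enrichment of 358 and 455. In their 35 shared regions the median relative ratio was 0.873. Of the 20 genes, 3 and 4 had a TSS region. Ptprc, which encodes the CD45 used in the sort, had none. Endothelial markers had 9 (6.92%) and 45 (34.6%) of 130 regions, a summed fold enrichment of 663 and 848, and 2 TSS regions of 15 genes in each list, with none at Pecam1 and Cdh5. In their 76 shared regions the median relative ratio was 0.907. Of the luminal epithelial markers, all 18 had a TSS region in both lists, and 40 of their 344 regions were only in the Dll1+ (11.6%) and 51 only in the Dll1- list (14.8%). Basal markers had 7 TSS regions of 10 genes in each list, with none at Krt5, Krt14 and Trp63, and 11 (13.4%) and 25 (30.5%) of 82 regions only in the Dll1+ and only in the Dll1- list. Among all markers, Gata3 (6 and 13) and Trp63 (7 and 12) had the most regions in 1 list only. The part of immune and endothelial cells in the differences at the members was likewise not tested.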

How the data were processed

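ATAC-seq of 3 Dll1+ and 4 Dll1- samples was analyzed from 2 peak lists, 1 per population, which the authors made with the ENCODE ATAC-seq pipeline from all samples of a group together. The aligner, peak caller and thresholds are not given in the sources used here, and the submitters' processing notes name mm10 and GRCm38. The deposited fold enrichment (a ratio of reads at the summit to local background) and the deposited −log10 p-value are the authors' own. The deposited −log10 q-value and score, which the authors' pipeline derived from −log10 p and capped, were not used.

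Rows that overlapped or touched were merged into union regions and assigned to the nearest protein-coding TSS (GENCODE M21 basic). A Poisson model turned the deposited fold and −log10 p-value of a row back into reads at its summit, (reads + 1)/(background + 1), within 0.01 of the −log10 p-value. The model solved 132872 of 132872 Dll1+ and 148922 of 148923 Dll1- rows, and was tested on simulated data. Read ratios carry exact Clopper-Pearson and shares Wilson 95% intervals. A TSS region overlapped the stretch from 1000 bp before a TSS to 100 bp after it. Differences past 20 percentile points or 1.5 fold were counted. All members were named, each with its TSS region, its strongest regions and its largest rank differences; of the other lists, Plat, Timp2 and the genes with the largest excess of regions in 1 list. A further gene fixed for naming is not reported here. Members and lists were chosen with earlier results of these data known. Python 3.11.15, numpy 2.4.6, pandas 2.3.3, scipy 1.17.1 and pysam 0.24.0 were used.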

Additional observations from a re-analysis of the deposited data

How the results depend on the processing

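No paired analysis was possible because each list pools the samples of its group, and for the same reason no sample could be left out. Totals over all members, over the fibroblast markers and over the other proteolysis lists were compared with alternative settings. Of these 51 comparisons, 40 stayed near the main value and 11, all of member totals, moved. The balance between the populations turned under 2 settings, equal numbers of rows and reads scaled by the genome-wide background, which shifted all shared regions toward Dll1+ as well. Keeping only rows at or above the median fold of their list gave 26 shared regions, 4 only in Dll1+ and 10 only in Dll1- (51, 7 and 21 with all rows). Of all regions, 9.44 and 21% were then only in Dll1+ and only in Dll1-. Past 20 points, 1 region was higher in Dll1+ and 7 higher in Dll1- (2 and 5 with all rows). Percentiles were ranked anew among the kept rows, so the 20-point limit is not the same there, and its share over all regions was not counted. Requiring a row at or above the median fold only of regions in 1 list left 0 only in Dll1+ and 6 only in Dll1- (1.9 and 7.49% of all regions). Within 50 kb of the TSS, 4 of 63 regions were only in Dll1+ and 17 only in Dll1- (7.87 and 23.6% of all regions). Past 20 points, 0 were then higher in Dll1+ and 5 higher in Dll1-, and the share over all regions was not counted. With equal numbers of rows, 5 regions passed 20 points higher in Dll1+ and 4 higher in Dll1- (2 and 5 with all rows). Of all shared regions, 10 and 7.92% then did so (6.39 and 11.1% with all rows). Scaling reads by the genome-wide background gave 10 regions past 1.5 fold higher in Dll1+ and 6 higher in Dll1- (5 and 9 by the median region). Of all shared regions, 23.6 and 6.21% then passed (12.5 and 12.3% by the median region). Within 50 bp of the summit, the NF-kB consensus was in 2 regions (5 within 100 bp).

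Of the 244 comparisons for single genes and regions, 218 stayed and 26 moved. At Plau, regions only in Dll1- numbered 1 with the asymmetric threshold, 2 with rows at or above the median fold and 7 or 8 with the others. At Timp3, regions only in Dll1+ and only in Dll1- numbered 0 and 3 with the asymmetric threshold and 1 and 5 within 50 kb of the TSS (4 and 9 with all rows). With rows at or above the median fold, Plaur had 1 region only in each list (0 with all rows), and the region 14.0 kb downstream of Plau differed by -67.9 points (-33.9 with all rows). The last change came with ranking anew among the kept rows, and the Plaur region 0.8 kb upstream went from -13.4 to -26.8 points in the same way.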
